A study of Arabidopsis thaliana with 48 samples.

Results

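The 40 histone genes described here encode the core histones H2A, H2B, H3 and H4 and the linker histone H1 of Arabidopsis thaliana. They were taken from the 33323 genes in the count tables by a list of gene identifiers. No measured value served as a filter, but the list was chosen with earlier results of these data known. The 40 genes comprise 26 genes classed as S-phase histones (4 canonical H2A, 9 H2B, 5 H3.1 and 8 H4), 6 replacement variants (3 H2A.Z and 3 H3.3), 5 other H2A variants (2 H2A.X and 3 H2A.W) and 3 linker histones. RNA-seq was carried out on whole seedlings of 4 genotypes in the Col-0 accession: the wild type (Col), hsfa2, hsfa3 (the allele hsfa3-1) and the double mutant hsfa2 hsfa3. HSFA2 and HSFA3 are heat shock transcription factors, and the study asked how they maintain gene expression after heat stress (HS). At 4 d of age seedlings received a 2-step acclimation treatment (ACC), in which 1 h at 37 °C was followed by a recovery of 90 min at 23 °C and then by 45 min at 44 °C, and were harvested 4 h, 28 h or 52 h later, while untreated seedlings served as the no-HS control. Each of the 16 groups had 3 libraries, 48 in all. All plants grew in long days of 16 h light and 8 h dark. Each genotype had a single no-HS group, so a treatment effect cannot be told apart from an effect of the age of the seedlings or the time of day at harvest. Each mutant line was represented by its own allele only, and whole seedlings mix all organs.

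Histones package DNA into nucleosomes, each an octamer of H2A, H2B, H3 and H4, with H1 bound to the linker DNA between them. Canonical H2A, H2B, H3.1 and H4 are made mainly during S phase and are deposited behind the replication fork, H3.1 by the chaperone complex CAF-1. H3.3 and H2A.Z are made throughout the cell cycle and exchanged into chromatin outside replication. H2A.X is phosphorylated at DNA breaks, H2A.W marks plant heterochromatin, and H2A.Z has been linked to temperature-dependent transcription in Arabidopsis.

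The sequences show how alike these genes are and how far their counts can be told apart. By translation of the RefSeq TAIR10.1 coding sequences, the 5 H3.1 genes encode 1 protein, the 3 H3.3 genes encode 1 other protein, and the 8 H4 genes encode 1 protein, and H3.1 and H3.3 differ at 4 of 136 residues. At the DNA level the coding sequences have diverged, with identities of 80.3% to 89.5% among the H3.1 genes and of 78.8% to 98.1% among the H4 genes. The closest pairs were AT1G07660 and AT1G07820 (98.1%), AT3G45930 and AT3G46320 (97.4%), and AT5G59690 and AT5G59970 (97.1%). Even so, exact copies of windows of 150 bases within single exon blocks were found elsewhere in the genome only for AT3G45930 (2.02% of windows) and AT3G46320 (2.22%). For the other 38 members the share was 0%. Windows across splice junctions and exon blocks shorter than 150 bases were not searched. Overlap with a neighbouring gene was the larger source of uncertain counts. In the RefSeq annotation another gene covered 100% of the exons of AT5G02570, an H2B gene that lies within HTA12, and 62.3% of those of H2AXB, 41.9% of AT1G06760, 39.4% of AT3G27360, 37.3% of HTB9, 34.7% of HTA12 and 11.9% of HTA13. The counts of these 7 genes are less certain.

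Promoters are shown for 5 members to place the known histone promoter element beside their changes at 4 h. Each runs from 250 bases before to 50 bases after the annotated gene start in RefSeq TAIR10.1 and is written 5′ to 3′ on the coding strand. Capitals mark the octamer CGCGGATC, an element known from plant histone promoters, on either strand, or a match to the binding site of E2F, the S-phase transcription factor (TTTCCCGC, TTTGGCGC, TTTCGCGC or TTTGCCGC). AT5G10400 (chr5:3270908-3271207, minus strand) encodes H3.1 and had the deepest fall of that kind. AT1G07660 (chr1:2368583-2368882, plus strand) encodes H4 and was not called. HTA13 (chr3:7229140-7229439, plus strand) encodes canonical H2A and rose, with the octamer on the opposite strand. AT3G46320 (chr3:17020379-17020678, minus strand) encodes H4 and likewise had the deepest fall of its kind, and HTA1 (chr5:22196037-22196336, plus strand) encodes canonical H2A and had the largest rise.
AT5G10400: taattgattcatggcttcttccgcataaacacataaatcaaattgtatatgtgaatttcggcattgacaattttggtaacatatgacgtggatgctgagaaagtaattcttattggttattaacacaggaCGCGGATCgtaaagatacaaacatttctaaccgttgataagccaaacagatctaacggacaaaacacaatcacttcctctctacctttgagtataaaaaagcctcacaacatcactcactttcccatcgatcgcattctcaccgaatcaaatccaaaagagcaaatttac
AT1G07660: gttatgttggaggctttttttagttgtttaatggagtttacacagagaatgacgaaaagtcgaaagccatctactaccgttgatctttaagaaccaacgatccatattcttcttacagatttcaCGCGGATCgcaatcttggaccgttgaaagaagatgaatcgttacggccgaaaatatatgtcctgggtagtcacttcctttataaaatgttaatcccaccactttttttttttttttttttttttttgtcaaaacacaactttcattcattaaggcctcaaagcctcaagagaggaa
HTA13: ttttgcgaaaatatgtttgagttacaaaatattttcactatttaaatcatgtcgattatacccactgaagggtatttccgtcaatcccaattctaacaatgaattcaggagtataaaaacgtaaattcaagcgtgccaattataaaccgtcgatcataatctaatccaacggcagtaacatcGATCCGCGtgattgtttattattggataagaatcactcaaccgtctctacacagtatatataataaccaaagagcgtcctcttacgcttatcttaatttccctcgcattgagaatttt
AT3G46320: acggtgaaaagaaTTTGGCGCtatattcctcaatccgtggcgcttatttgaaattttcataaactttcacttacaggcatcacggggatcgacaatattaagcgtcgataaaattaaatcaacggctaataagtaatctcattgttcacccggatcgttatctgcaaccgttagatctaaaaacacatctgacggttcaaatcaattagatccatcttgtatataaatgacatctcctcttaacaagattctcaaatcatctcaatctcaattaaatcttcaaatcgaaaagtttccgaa
HTA1: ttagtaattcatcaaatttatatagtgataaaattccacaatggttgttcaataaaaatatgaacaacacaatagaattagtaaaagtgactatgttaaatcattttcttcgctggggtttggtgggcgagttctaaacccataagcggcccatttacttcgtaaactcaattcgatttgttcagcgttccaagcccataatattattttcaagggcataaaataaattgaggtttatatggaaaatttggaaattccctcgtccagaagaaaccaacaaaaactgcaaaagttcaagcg

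The octamer was present in 10 of the 40 member promoters (25%) and in 40 of 27443 promoters of protein-coding genes in the annotation (0.146%), so that these 10 histone genes made up 10 of the 40 promoters that hold it. In AT5G10400 and AT1G07660 it began 120 and 126 bases upstream of the annotated start. Its presence did not divide the members by the direction of their change in Col at 4 h. It was found in 5 of the 24 members that fell (among them HTA10, AT5G65360, AT1G09200 and AT5G10400), in 1 of the 7 that rose (HTA13) and in 4 of the 9 that were not called (AT4G40040, AT1G07660, AT5G59690 and AT1G06760). An E2F match was present in 3 members (7.5%), HTB2, AT3G45930 and AT3G46320, against 1.76% of all promoters, and these 3 were among the members that fell. The windows of AT3G45930 and AT3G46320 hold nearly the same letters, with the match at position -237 in both, so they are not independent. Paired heat shock element units (GAANNTTC or TTCNNGAA, either strand) were found in 4 members (10%), HTB2, AT2G28720, AT4G40030 and AT1G06760, against 19.3% of all promoters. In HTB2 the E2F match ended directly before a heat shock element unit. These matches describe the letters in the windows and are not evidence of binding.

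All 40 members passed the filter on low counts, and 21107 protein-coding genes were tested. Levels are given as CPM, the counts of a gene per 1000000 counts of the library, scaled by TMM factors. A member rose or fell where the edgeR quasi-likelihood test gave a Benjamini-Hochberg adjusted p below 0.05 over all genes tested. Totals over protein-coding genes ranged from 27561060 to 33861060 counts per library. The Col library numbered 1 at 28 h stood apart, with 2.86% of its reads in no annotated gene (at most 1.84% in the other libraries) and 2.34% multimapping reads (at most 2.06%), and the results at 28 h are also given without it, an alternative chosen after seeing the data. The targeted genes fitted the labels at 4 h, when HSFA2 was at 1236.5 to 1589.3 CPM in Col and at 43.5 to 72.4 CPM in hsfa2, and HSFA3 was at 892.8 to 1128.9 CPM in Col and at 155.9 to 172.1 CPM in hsfa3. Markers of root and shoot were present in all Col libraries. The study's methods describe the 3 libraries of a group as biological replicates.

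Per kilobase of exon, the order of levels over all 48 libraries was led by the H3.3 genes AT5G10980 and AT4G40040, at 261.1 and 199.8 CPM per kb, followed by the H3.1 gene AT5G65360 at 168.3 CPM per kb. The H2B gene HTB4 had 141.0, the H2A.Z gene HTA9 104.9 and the H1 gene AT1G06760 104.7 CPM per kb. The most abundant H4 gene by this scale was AT5G59690 at 70.8 CPM per kb. The order closed with the H2A.W gene HTA12 at 4.96, the H3.1 gene AT3G27360 at 2.54 and the H2B gene AT5G02570 at 1.1 CPM per kb. HTA12, AT3G27360 and AT5G02570 overlap another annotated gene, so their place in this order is less certain. In gene structure the 5 H3.1 genes had 1 exon block each, while the H3.3 genes AT4G40030 and AT4G40040 had 4 and AT5G10980 had 3.

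At 4 h after ACC more histone genes of Col fell than rose. Of the 40 members 24 fell and 7 rose, where 36.1% of all genes tested fell and 35.5% rose. The median log2 fold change was -0.63 over the members and -0.05 over all genes tested. Groups without overlap were common at 4 h in Col. Every 4 h library lay below every control library for 38.2% of all genes tested and above for 37.2%. Among the 26 S-phase histones 16 fell and 4 rose, with a median of -1.36. Among the 6 replacement variants 3 fell and 2 rose, with a median of -0.38. When a fold change over 2-fold (log2 fold change over 1) was also required, 18 members fell and 3 rose, where 19.8% of all genes tested fell and 16.9% rose. In bulk seedlings fewer dividing cells and less RNA per cell cannot be told apart. Markers of other cell types moved at the same time. Of 6 root markers 5 fell and 1 rose, and their summed level went from 99.2 to 108.4 CPM without HS to 48.7 to 65.6 CPM at 4 h. Of 6 shoot markers 3 fell and 1 rose, and their summed level of 15178.2 to 19309.0 CPM without HS and 9918.8 to 11806.8 CPM at 4 h was mostly that of RBCS1A, the small subunit of Rubisco, whose median went from 14135.8 to 6947.1 CPM. The light-harvesting gene LHCB2.1 rose, from a median of 859.6 to 2008.7 CPM, and CAB3 had medians of 1905.3 and 2270.0 CPM and was not called. No marker was at 0, and their part in the histone changes was not tested.

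**Figure D1:**
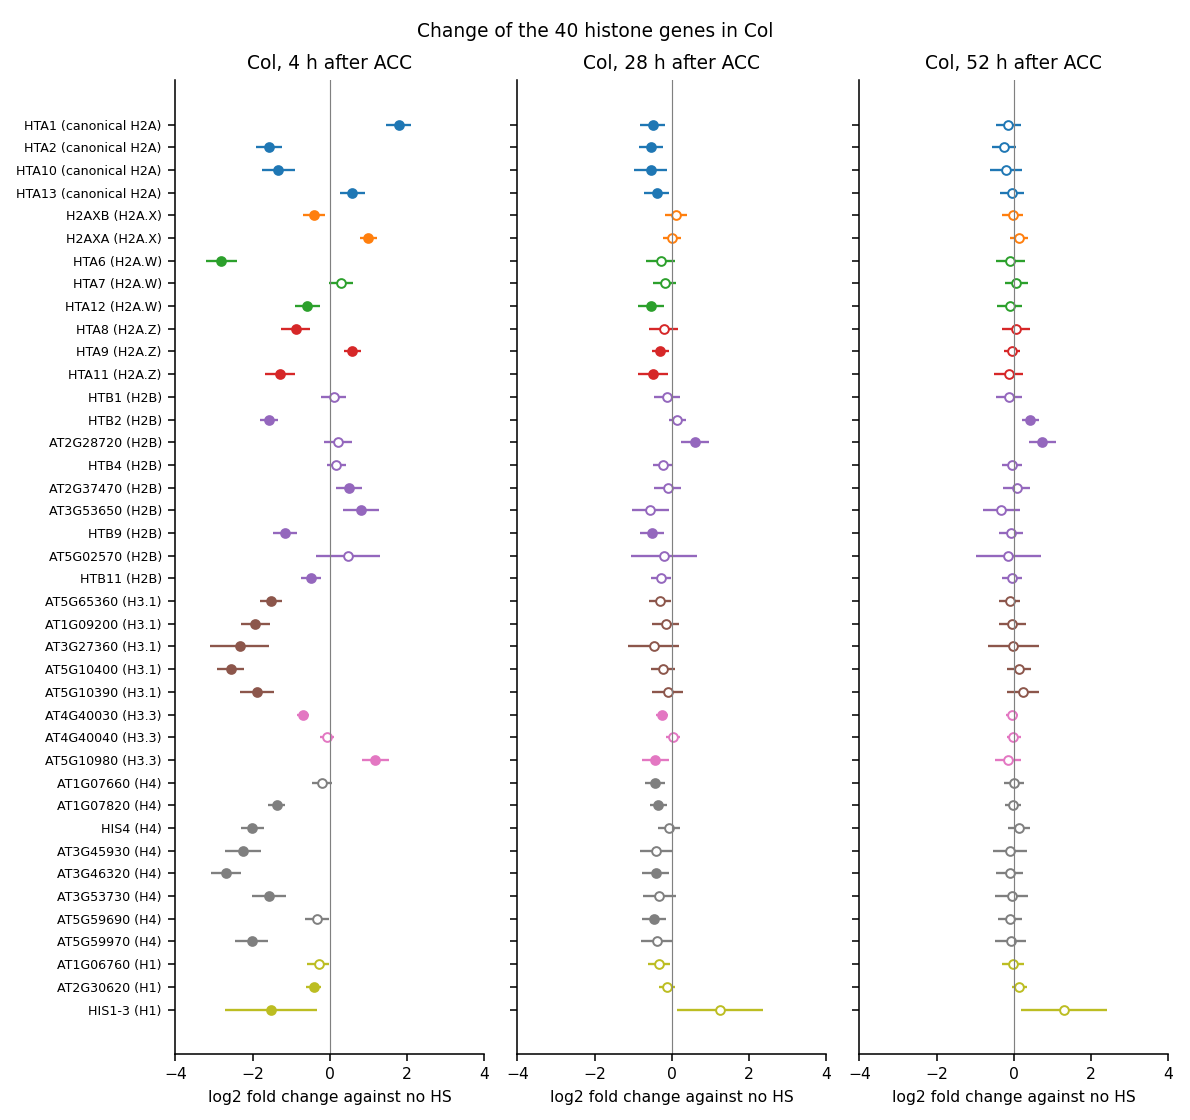
Log2 fold change against no HS (x axis) of each of the 40 histone genes (rows, coloured by kind) in Col at each time after ACC (panels for 4 h, 28 h, 52 h), with bars for the 95% interval, filled points for adjusted p below 0.05 and open points for the rest. At 4 h all 5 H3.1 genes and 6 of 8 H4 genes are filled to the left of 0 and HTA1 and AT5G10980 to the right, and by 52 h only HTB2 and AT2G28720 are filled.

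The H3.1 genes, which supply the histone H3 of replicating chromatin, all fell in Col at 4 h, by 1.52 to 2.57 on the log2 scale. AT5G65360, the H3.1 gene with the highest CPM, was at 165.1, 140.4 and 174.5 CPM without HS and at 49.6, 60.5 and 57.3 CPM at 4 h. The groups did not overlap, and the log2 fold change was -1.52 (SE 0.142, edgeR adjusted p = 8.58e-12). AT5G10400, the H3.1 gene with the largest change, was at 43, 43.3 and 46.4 CPM without HS and at 6.01, 6.53 and 9.74 CPM at 4 h. Every heated library lay well below every control library (log2 fold change -2.57, SE 0.168, edgeR adjusted p = 6.06e-16). AT1G09200 (-1.93), AT5G10390 (-1.88) and the weakly expressed AT3G27360 (-2.34) also fell.

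The H3.3 genes encode the replacement form of H3 and each went its own way, although they encode the same protein. AT5G10980 was at 160.0, 163.0 and 181.8 CPM without HS and at 357.6, 384.7 and 396.6 CPM at 4 h. All 3 heated libraries were above the controls, with a log2 fold change of 1.17 (SE 0.171, edgeR adjusted p = 1.81e-07). AT4G40030 fell by 0.69 on the log2 scale (SE 0.075, edgeR adjusted p = 3.54e-10). AT4G40040, the H3.3 gene with the highest CPM, was at 307.4, 291.8 and 327.5 CPM without HS and at 299.2, 301.1 and 276.2 CPM at 4 h. These ranges overlapped, and its log2 fold change of -0.08 had a 95% interval of -0.26 to 0.10.

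In TMM-scaled CPM the summed levels of the forms of H3 went in opposite directions, and in both cases the 4 h libraries did not overlap the controls. In Col the 5 H3.1 genes together went from 366.0 ± 24.4 CPM without HS to 105.6 ± 9.06 CPM at 4 h (mean ± SD, n = 3). The 3 H3.3 genes together went from 691.0 ± 38.9 to 804.5 ± 7.51 CPM. The TMM factors of Col were 0.9703, 1.029 and 0.9881 without HS and 0.835, 0.8763 and 0.8812 at 4 h. Without these factors the H3.3 sums at 4 h overlap those of the controls, so their rise rests on the scaling. The H3.1 sums at 4 h stay below the controls either way. H3.3 made up 65.2%, 65.8% and 65.2% of the H3 counts in the no-HS libraries of Col and 89.3%, 87.9% and 88% at 4 h. At 28 h the share was 70.3%, 67.7% and 62%, and at 52 h it was 64.2%, 67.5% and 63.4%, so that only the 4 h libraries stood apart. The mean share at 4 h was 88.5% in hsfa2, 88.1% in hsfa3 and 87.6% in hsfa2 hsfa3, from 66%, 66.7% and 65.6% without HS. Shares of counts depend on gene length, and per kb of exon the mean share of H3.3 in Col was 53.8% without HS and 84.2% at 4 h. These shares are descriptions with no test.

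**Figure D2:**
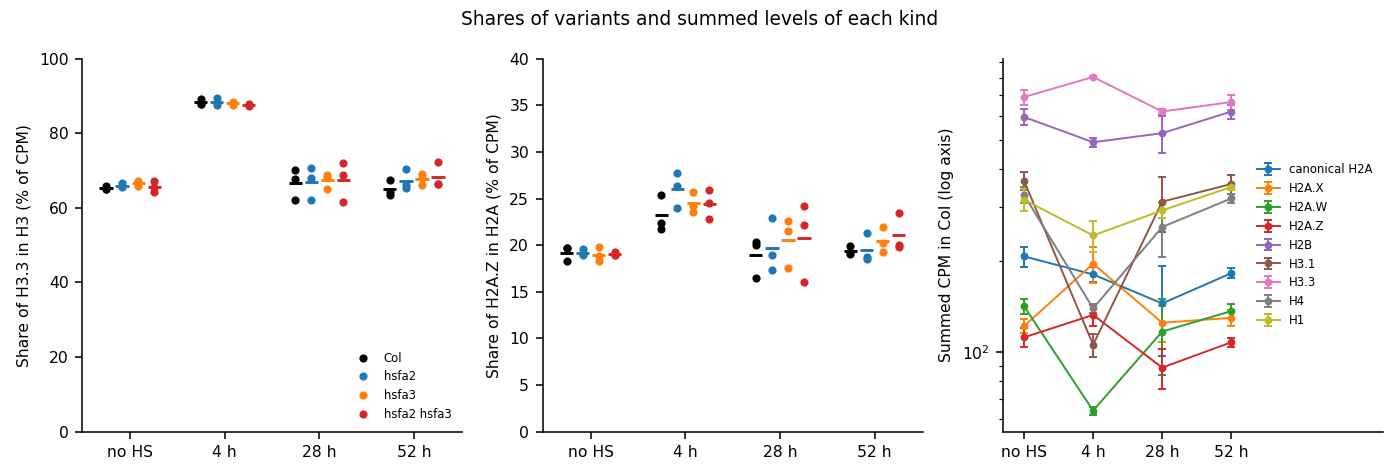
Share of H3.3 in the counts of all H3 genes and of H2A.Z in the counts of all H2A genes (left and middle, % of CPM, a point for each library, a line for the mean of 3), by time and genotype, and summed CPM of each kind in Col on a log axis (right, mean with SD, n = 3). The share of H3.3 lies near 66% without HS and near 88% at 4 h in all 4 genotypes, while summed H3.1 in Col drops from 366.0 to 105.6 CPM.

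The H4 genes fell in 6 of 8 cases at 4 h in Col, by 1.38 to 2.69 on the log2 scale. Over all genes tested 36.1% fell. AT1G07820, the H4 gene with the highest CPM, was at 70.7, 74 and 71.2 CPM without HS and at 27.3, 28 and 27.7 CPM at 4 h. The ranges were narrow and far apart (log2 fold change -1.38, SE 0.107, edgeR adjusted p = 6.33e-14). AT3G46320 was at 26.1, 30.4 and 31.5 CPM without HS and at 3.74, 4.76 and 5.1 CPM at 4 h, the deepest fall of an H4 gene (log2 fold change -2.69, SE 0.187, edgeR adjusted p = 3.27e-15). In 2 of the closest pairs the members differed. AT1G07660, which shares 98.1% of its coding bases with AT1G07820, was at 15.9, 15.3 and 15.5 CPM without HS and at 13.1, 14.1 and 13.1 CPM at 4 h. Its groups did not overlap either, but the log2 fold change of -0.21 (95% interval -0.47 to 0.06) did not pass the test. AT5G59690 had a log2 fold change of -0.34 (edgeR adjusted p = 0.0518), and its close relative AT5G59970 had -2.02 (edgeR adjusted p = 1.45e-10). The difference within either pair was not tested. Over all 8 genes the summed H4 level in Col went from 329.0 ± 19.5 to 139.1 ± 4.52 CPM (mean ± SD, n = 3).

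The canonical H2A genes, partners of H2B in the replication-coupled nucleosome, divided in Col at 4 h, with 2 that fell and 2 that rose. Over all genes tested 36.1% fell and 35.5% rose. HTA1 (AT5G54640) was at 23.2, 23.3 and 22.7 CPM without HS and at 84.5, 81.2 and 73.5 CPM at 4 h. It had the largest rise among the 40 members (log2 fold change 1.79, SE 0.159, edgeR adjusted p = 2.49e-12). HTA10 (AT1G51060), the canonical H2A gene with the highest CPM, was at 95.4, 116.4 and 111.3 CPM without HS and at 43.4, 44.5 and 39.7 CPM at 4 h. Its fall (log2 fold change -1.34, SE 0.213, edgeR adjusted p = 9.42e-07) was joined by HTA2 (-1.58), whose protein is 95.4% identical to that of HTA1. HTA13 rose by 0.58 on the log2 scale (edgeR adjusted p = 0.00158). The summed canonical H2A level was 206.4 ± 16 CPM without HS and 180.0 ± 10.1 CPM at 4 h (mean ± SD, n = 3).

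The H2A variants also divided within each kind. HTA6 (AT5G59870), a heterochromatic H2A.W, was at 95, 91.5 and 102.5 CPM without HS and at 11.9, 14.3 and 15 CPM at 4 h. This was the deepest fall among the 40 members (log2 fold change -2.81, SE 0.199, edgeR adjusted p = 5.69e-15). The other H2A.W genes differed from it, with -0.58 for HTA12, which fell (but not without replicate 2, -0.42, edgeR adjusted p = 0.0736), and 0.29 for HTA7 (edgeR adjusted p = 0.0734). H2AXA (AT1G08880), a histone of the DNA damage response, was at 85.4, 78.2 and 85.7 CPM without HS and at 195.9, 155.5 and 147.6 CPM at 4 h. All heated libraries were above all controls (log2 fold change 1.00, SE 0.114, edgeR adjusted p = 1.02e-09), whereas H2AXB, whose protein is 98.6% identical, fell by 0.41 on the log2 scale. Without replicate 3 the fall of H2AXB was no longer called (-0.33, edgeR adjusted p = 0.17). Among the H2A.Z genes HTA9 (AT1G52740) was at 77.3, 72.5 and 86.1 CPM without HS and at 124.0, 105.2 and 123.8 CPM at 4 h (log2 fold change 0.58, SE 0.108, edgeR adjusted p = 1.18e-05). HTA11 (AT3G54560) was at 23.4, 22.4 and 25.4 CPM without HS and at 8.63, 9.59 and 10.7 CPM at 4 h. It fell (log2 fold change -1.30, SE 0.193, edgeR adjusted p = 2.76e-07), as did HTA8 (-0.88). H2A.Z made up 19.7%, 18.3% and 19.7% of the H2A counts of Col without HS and 22.4%, 21.7% and 25.4% at 4 h.

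Of the 9 H2B genes 3 fell, 2 rose and 4 were not called in Col at 4 h. Of all genes tested 36.1% fell and 35.5% rose, so the falls of H2B genes were near that share. HTB4 (AT5G59910), the H2B gene with the highest CPM, was at 180.1, 178.2 and 200.4 CPM without HS and at 208.3, 213.5 and 207.7 CPM at 4 h. The heated libraries lay above the controls, but the log2 fold change of 0.17 (95% interval -0.08 to 0.42) did not pass the test. HTB2 (AT5G22880) was at 97.5, 95.2 and 100.3 CPM without HS and at 32.5, 35.5 and 30.6 CPM at 4 h (log2 fold change -1.57, SE 0.113, edgeR adjusted p = 7.93e-15). HTB9 (-1.16) and HTB11 (-0.49) also fell, while AT3G53650 (0.81) and AT2G37470 (0.50) rose. Without replicate 3 the fall of HTB11 was not called (-0.43, edgeR adjusted p = 0.0679). HTB1 (0.10), AT2G28720 (0.22) and AT5G02570 (0.48) were not called.

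Of the linker histones, which bind nucleosomes from outside and compact chromatin, AT2G30620 was at 171.1, 170.7 and 191.4 CPM in Col without HS and at 126.6, 152.1 and 121.9 CPM at 4 h. It fell by 0.41 on the log2 scale (SE 0.0971, edgeR adjusted p = 0.000304), and AT1G06760 had a log2 fold change of -0.29 (edgeR adjusted p = 0.0589). HIS1-3 (AT2G18050), an H1 variant known to be induced by drought and abscisic acid, was at 15.4, 7.05 and 12.5 CPM without HS, at 6.44, 2.14 and 3.6 CPM at 4 h, at 35.4, 30.5 and 16.7 CPM at 28 h and at 33.2, 22.9 and 30 CPM at 52 h. The 4 h libraries were all below the controls and the 28 h and 52 h libraries all above them. Such splits were common in Col, with 38.2% of all genes tested wholly below their controls at 4 h. At 28 h 23.4% and at 52 h 20.2% lay wholly above them. In Col only the fall at 4 h passed the test (log2 fold change -1.52, SE 0.588, edgeR adjusted p = 0.0209), and without replicate 3 it did not (-1.39, edgeR adjusted p = 0.207). At 28 h the log2 fold change was 1.24 (SE 0.548, edgeR adjusted p = 0.07) and at 52 h it was 1.30 (SE 0.548, edgeR adjusted p = 0.104). The library numbered 2 had the lowest HIS1-3 level of its 3 in 15 of 16 groups.

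**Figure D3:**
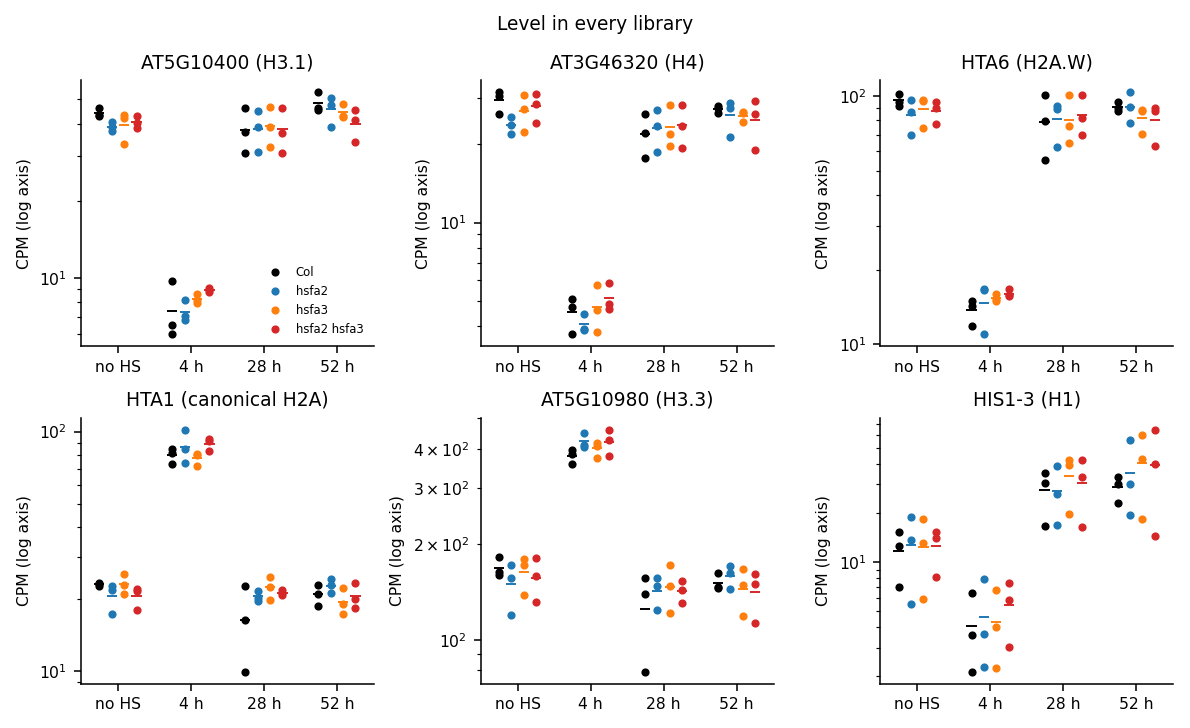
CPM on log axes of AT5G10400, AT3G46320, HTA6, HTA1, AT5G10980 and HIS1-3 in every library (points, coloured by genotype, with a line for the mean of 3) for the no-HS control and each time after ACC. In Col, HTA6 goes from 91.5 to 102.5 CPM without HS to 11.9 to 15 CPM at 4 h, HTA1 from 22.7 to 23.3 to 73.5 to 84.5 CPM, and of these 6 genes only HIS1-3 has every library above its controls at both 28 h and 52 h.

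At 28 h 25 of the 40 members of Col were not called against no HS. Between 4 h and 28 h 22 members rose and 9 fell in Col, where 35.4% of all genes tested rose and 32.9% fell. This step shares the 4 h libraries with the comparison above, and without the Col library numbered 1 at 28 h 23 members rose and 8 fell. HTA6 returned to 55.4, 79.7 and 101.3 CPM at 28 h (log2 fold change against 4 h 2.52, SE 0.197, edgeR adjusted p = 9.72e-14) and AT5G10400 to 30.8, 37.1 and 46.1 CPM. HTA1 went to 9.97, 16.4 and 22.7 CPM at 28 h (log2 fold change against 4 h -2.29, SE 0.163, edgeR adjusted p = 7.43e-15). Against no HS, 14 members fell in Col at 28 h and 1 rose, where 16.8% of all genes tested fell and 21.4% rose, and none of these changes reached 2-fold. The median log2 fold change of the members was -0.30, and that of all genes tested was 0.02. The members that fell included all 4 canonical H2A genes and 4 of 8 H4 genes, and none of the 5 H3.1 genes. In fits that left out a replicate number, 8 members fell without replicate 1, 5 without replicate 2 and 6 without replicate 3. Without replicate 1 these were not all among the 14. HTA1, HTA9, HTA10, HTA11, HTA13, AT4G40030, AT5G10980 and AT1G07660 were no longer called in that fit. The Col library numbered 1 at 28 h, which stood apart in its read shares, had a summed S-phase level of 1006.2 CPM, below the other libraries of its group with 1239.7 and 1474.1 CPM. Without this library alone, 1 member fell (HTA12, log2 fold change -0.50, edgeR adjusted p = 0.0395) and 1 rose, where 11.6% of all genes tested fell and 15.5% rose, and the median of the members was -0.15. The falls of the other 13 members in Col at 28 h therefore were not called without it.

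In the mutants at 28 h, 0 members fell and 1 rose in hsfa2 (7.85% and 9.81% of all genes tested), 1 fell and 1 rose in hsfa3 (11.1% and 11.6%), and 2 fell and 1 rose in hsfa2 hsfa3 (10.1% and 9.8%). At an unadjusted p below 0.05 no member was lower in hsfa2, and DESeq2 also called 0. No member fell in all 4 genotypes at 28 h. The H2B gene AT2G28720 rose in all 4, from 15.8, 14.7 and 17.4 CPM without HS to 19.1, 30 and 23.6 CPM in Col. Its log2 fold change was 0.60 in Col, 0.83 in hsfa2, 0.89 in hsfa3 and 0.65 in hsfa2 hsfa3. In Col the rise was not called without replicate 2 (0.36, edgeR adjusted p = 0.238). Averaged over the 4 genotypes, 17 members fell and 2 rose at 28 h, where 28.1% of all genes tested fell and 31.4% rose. Those that rose were AT2G28720 (log2 fold change 0.74, SE 0.0878, edgeR adjusted p = 8.37e-09) and HIS1-3 (1.27, SE 0.273, edgeR adjusted p = 0.000153), and those that fell did so by 0.16 to 0.54. Without the Col library numbered 1 at 28 h, 11 members fell and 3 rose in this average.

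At 52 h the members of Col were close to their controls. None fell and 2 rose, where 7.08% of all genes tested fell and 7.75% rose, and the median log2 fold change was -0.05. Taking unadjusted p below 0.05, 0 members were lower and 3 higher, and DESeq2 called 0 lower and 2 higher. The H2B gene HTB2 reached 138.2, 137.2 and 119.4 CPM, above all 3 controls (log2 fold change 0.43, SE 0.109, edgeR adjusted p = 0.00649), after its fall at 4 h. AT2G28720 reached 27.1, 32.7 and 20.2 CPM (log2 fold change 0.74, SE 0.176, edgeR adjusted p = 0.00375). Without replicate 2 neither rise was called (0.40 for HTB2, edgeR adjusted p = 0.0589, and 0.53 for AT2G28720, edgeR adjusted p = 0.143), and without replicate 3 that of HTB2 was not (0.52, edgeR adjusted p = 0.0687). In hsfa2 none fell and 2 rose, where 1046 of the 21107 genes tested fell and 1244 rose. In hsfa3 none fell and 2 rose, where 680 genes fell and 923 rose. In hsfa2 hsfa3 none fell (1 at an unadjusted p below 0.05 and 1 by DESeq2) and only HIS1-3 rose (log2 fold change 1.67, SE 0.549, edgeR adjusted p = 0.0445), where 5.42% of all genes tested fell and 5.71% rose. HIS1-3 was at 15.2, 8.14 and 14.1 CPM without HS and at 64.7, 14.4 and 39.7 CPM at 52 h in hsfa2 hsfa3, and these ranges overlapped. Averaged over the 4 genotypes, 2 members fell and 6 rose at 52 h, where 23.4% of all genes tested fell and 24.7% rose. The largest rise was that of HIS1-3 (log2 fold change 1.54, SE 0.274, edgeR adjusted p = 2.24e-05), followed by AT2G28720 (0.60) and HTB2 (0.33).

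Most of the 4 h changes were found in every genotype. In hsfa2 24 members fell and 10 rose (35.2% and 34.7% of all genes tested), in hsfa3 25 fell and 7 rose (35.9% and 34%), and in hsfa2 hsfa3 23 fell and 10 rose (35.3% and 34.8%). Of the 25 members that fell in at least 1 genotype 22 fell in all 4, and of the 11 that rose in at least 1 genotype 6 rose in all 4, namely HTA1, HTA13, H2AXA, HTA9, AT2G37470 and AT5G10980. The same count was not made over all genes tested, so whether such sharing is particular to histone genes was not tested. No member rose in a genotype and fell in another. Each genotype was compared with its own no-HS libraries. In hsfa2 hsfa3, HTA6 went from 77.4, 90 and 94.6 CPM to 15.6, 15.8 and 16.7 CPM, with a log2 fold change of -2.45 beside -2.81 in Col. HTA1 went from 18, 21.6 and 22.1 CPM to 82.7, 91.2 and 93.1 CPM, with a log2 fold change of 2.11 beside 1.79 in Col. AT5G10980 went from 131.7, 158.4 and 180.6 CPM to 378.4, 426.9 and 459.5 CPM, with a log2 fold change of 1.43 beside 1.17 in Col.

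**Figure D4:**
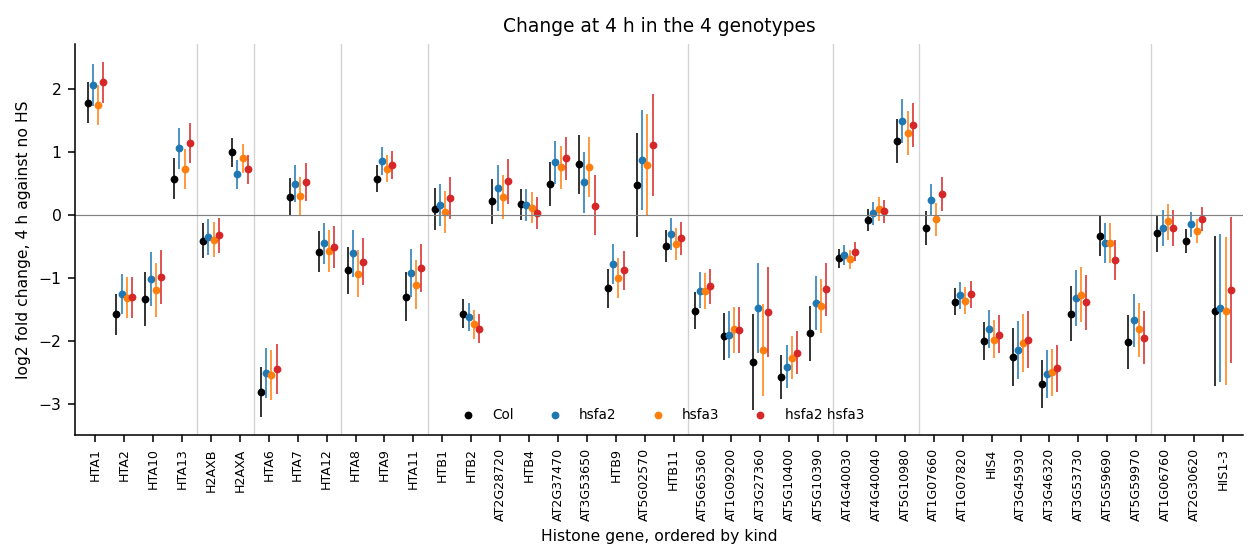
Log2 fold change at 4 h against no HS (y axis, bars for the 95% interval) of the 40 histone genes (x axis, ordered by kind) in Col, hsfa2, hsfa3 and hsfa2 hsfa3 (colours). For HTA6 the points lie at -2.81, -2.51, -2.54 and -2.45 in that order, while those of AT3G53650 lie further apart, at 0.81, 0.52, 0.77 and 0.15.

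In the main fit, which has no term for the replicate number, the test of the difference between mutant and Col called no member. This held for the change after ACC at every time. At 4 h 2.61% of all genes tested were called in hsfa2, 0.455% in hsfa3 and 4.38% in hsfa2 hsfa3, and at 28 h the shares were 0.156%, 0% and 1.23%. The shares for 52 h were 0.0142%, 0% and 0.118%. Taking unadjusted p below 0.05, 3, 0 and 4 members stood out at 4 h in hsfa2, hsfa3 and hsfa2 hsfa3, 6, 2 and 4 at 28 h, and 1, 0 and 0 at 52 h, and DESeq2 called none. The lowest adjusted p was 0.108, for the H4 gene AT1G07660 in hsfa2 hsfa3 at 4 h, whose change exceeded that in Col by 0.54 on the log2 scale (95% interval 0.16 to 0.91). The next at that time were HTA13, with 0.57 (0.12 to 1.02), AT2G30620, with 0.35 (0.07 to 0.63), and AT5G10390, with 0.69 (0.09 to 1.30). For 33 of the 40 members the 95% interval of the difference between hsfa2 hsfa3 and Col at 4 h lay within 2-fold in either direction (log2 of -1 to 1), and its half-width was 0.46 at the median. Calls appeared in other fits. A fit to all 48 libraries with a term for the replicate number (replicate block) gave calls in hsfa2 hsfa3 at 4 h. They were AT1G07660 (0.54, edgeR adjusted p = 0.028), HTA13 (0.57, edgeR adjusted p = 0.0445) and AT5G10390 (0.72, edgeR adjusted p = 0.0197). Single calls also appeared when libraries were left out. In hsfa2 hsfa3 at 4 h, AT5G10390 was called without replicate 1 (0.61, edgeR adjusted p = 0.0248). AT1G07660 was called there without the Col library numbered 1 at 28 h (0.54, edgeR adjusted p = 0.0176), which is not part of the 4 h contrast. In that fit 4.13% of all genes tested were called lower and 0.513% higher in hsfa2 hsfa3 at 4 h. In hsfa2 hsfa3 at 28 h HTA9 was called without replicate 2 (0.81, edgeR adjusted p = 0.0125). For the replicate block and the fits without a replicate number, the share over all genes was not counted. Without HS no member was called between a mutant and Col (1 in hsfa2, 0 in hsfa3 and 0 in hsfa2 hsfa3 at an unadjusted p below 0.05), where 0.0426%, 0.0284% and 0.0521% of all genes tested were called in hsfa2, hsfa3 and hsfa2 hsfa3.

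Genes of DNA replication, mitosis, histone deposition and G1/S regulation are given for comparison in Col. Of all genes tested 36.1% fell and 35.5% rose at 4 h, with a median log2 fold change of -0.05. Of 20 DNA replication genes 14 fell and 2 rose at 4 h, with a median log2 fold change of -0.80. ORC2, a subunit of the origin recognition complex, was at 3.4, 3.58 and 3.92 CPM without HS and at 0.963, 1.22 and 1.53 CPM at 4 h (log2 fold change -1.55). ICU2, the catalytic subunit of DNA polymerase alpha, had -1.54 and MCM3, a subunit of the replicative helicase, had -1.34. Of 11 mitosis genes 10 fell and none rose, with a median of -1.10, among them the B-type cyclin CYCB1;4 (-1.69) and the mitotic kinase CDKB2;1 (-1.56).

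Of 18 histone chaperone and deposition genes 6 fell and 8 rose at 4 h in Col, shares of 33.3% and 44.4% beside 36.1% and 35.5% of all genes tested. FAS2, a subunit of CAF-1, was at 6.01, 6.3 and 6.79 CPM without HS and at 1.69, 1.87 and 2.21 CPM at 4 h (log2 fold change -1.72). ASF1B, which hands H3-H4 to other chaperones, was at 10, 10.5 and 10.7 CPM without HS and at 36.9, 40.1 and 40.3 CPM at 4 h (log2 fold change 1.91). MSI1, a subunit shared by CAF-1 and Polycomb complexes, rose by 1.35, and the H3.3 chaperone subunit HIRA by 0.49. Of 10 G1/S regulators 4 fell and 4 rose, also close to the shares of all genes, with CYCA3;1 (-1.86) and the D-type cyclin CYCD3;1 (-1.84) lower and the transcription factor E2FB (1.77) higher. At 28 h 13 of the 20 replication genes and 12 of the 18 deposition genes rose and none of either fell, with medians of 0.33 and 0.43, where 21.4% of all genes tested rose and 16.8% fell. Without the Col library numbered 1 at 28 h, 10 and 9 rose and again none fell, where 15.5% of all genes tested rose. The S-phase histones, of which 9 of 26 fell and 1 rose at 28 h, had 0 that fell and 1 that rose without that library. By 52 h 3 of the 20 replication genes and 2 of the 18 deposition genes rose, where 7.75% of all genes tested did.

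**Figure D5:**
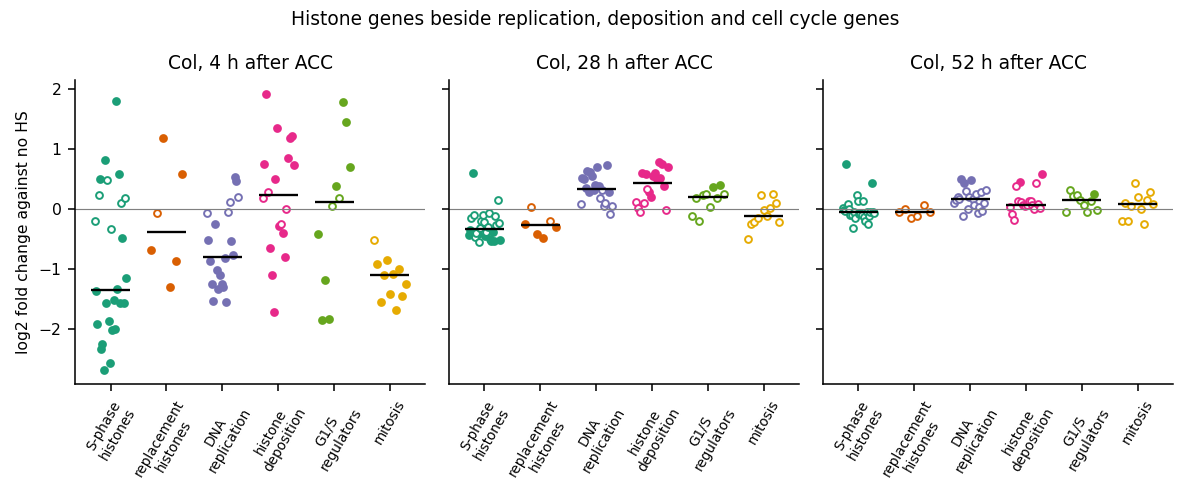
Log2 fold change against no HS (y axis) in Col at each time after ACC of the S-phase and replacement histones and of the genes of DNA replication, histone deposition, G1/S and mitosis (a point for each gene, filled where adjusted p was below 0.05, with a line for the median). At 4 h the medians are -1.36 for S-phase histones, -0.80 for DNA replication and -1.10 for mitosis, and at 28 h the replication median is 0.33 and that of the S-phase histones is -0.34 (0.35 and -0.17 without the Col library numbered 1).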

How the data were processed

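RNA from whole seedlings was sequenced as paired-end reads, and the authors deposited a table for each of the 48 libraries with the counts of reads per gene as STAR gives them. The submitters' processing notes name STAR 2.5.1a and the build TAIR10. Which strand setting the deposited column holds is not given in the sources used here, so that reads of a gene and an overlapping gene on the other strand may not have been told apart. Rows for unmapped, multimapping, ambiguous or unassigned reads made up 7.2% to 9.38% of a library and were left out. Counts of the 26712 protein-coding genes (of 33323, named from the RefSeq TAIR10.1 table) were filtered with filterByExpr, scaled by TMM and fitted for 16 group means in edgeR 4.0.16 (R 4.3.3) with the quasi-likelihood test, and p-values were adjusted by Benjamini-Hochberg over the 21107 genes tested in a contrast. DESeq2 1.42.0 and other settings served as alternatives. Intervals are 95% intervals from the fit. Near-identical copies could lose multimapping reads, and overlapping genes could lose ambiguous reads. Members were described in every Col library when they had the highest mean CPM or the largest called change of their kind, and the 3 genes of a comparison list (2 for mitosis) with the largest called change at 4 h were named. Members and lists were chosen with earlier results of these data known. Promoters and coding sequences were read from RefSeq TAIR10.1 by its own annotation. After the main fit, the same model was run on simulated counts with known changes in Col at 4 h and spreads taken from that fit. The simulated libraries were independent and few genes changed. Effects shared by replicate numbers and scaling under widespread change were therefore not tested.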

Additional observations from a re-analysis of the deposited data

How the results depend on the processing

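The counts of members that fell (24) and rose (7) in Col at 4 h stayed within 1.5 times under DESeq2, DESeq2 size factors, both other filters, all genes, each genotype fitted alone, each replicate number left out (21 to 26 fell and 7 to 8 rose) and adjusted p below 0.01, and with a 2-fold threshold 3 rose. Between 28 and 31 of the 31 calls were shared with the alternatives other than these thresholds. Calls lost at 4 h were H2AXB, HIS1-3 and HTB11 without replicate 3 and HTA12 without replicate 2. The count of members that fell in Col at 28 h (14) became 5 to 8 without a replicate number. It became 8 with each genotype fitted alone, 6 at adjusted p below 0.01 and 0 with the 2-fold threshold. The member that rose at 28 h became 0 to 1 without a replicate number, 2 with each genotype fitted alone and 0 with the 2-fold threshold. The members that rose at 52 h became 0 to 2 without a replicate number and 0 with the 2-fold threshold. The cause was not tested. Replicate numbers were shared between groups, but same-numbered libraries did not deviate together in every pair, so they were not treated as pairs. The correlation of their deviations had a mean of 0.262 (lowest -0.38, 75% of pairs over 0.1), and in 4 of 12 contrasts with no HS every pair was over 0.1. The mean for different numbers, -0.13, largely follows from taking deviations from the group means and adds no separate information. On average same-numbered libraries thus did deviate together, and the main fit leaves this in the spread. The library numbered 1 was the lowest of its group in 15 of 16 groups for AT1G09200, AT5G10390 and AT3G53730. It was the lowest in 4 groups for HTA9 and in 0 for HIS1-3. With a replicate block, 22 members fell and 2 rose in Col at 28 h, and 3 members were called among the differences between mutant and Col (AT1G07660, HTA13 and AT5G10390, hsfa2 hsfa3 at 4 h), where the fit without it called 0. Without replicate 1 or 2 the differences held 1 call each (0 to 1 over the 3 fits). Without the Col library numbered 1 at 28 h alone, an alternative chosen after seeing the data, 1 member fell in Col at 28 h, and the differences held 1 call. AT4G40040 at 4 h (-0.08) ranged from -0.10 to 0.00 without a replicate number and was at 0.00 without replicate 3. Of 208 values of the named members in Col at 4 h under the alternatives, 203 kept direction and call, and the exceptions beside AT4G40040 were HTA9 and AT2G30620 at the 2-fold threshold and HIS1-3 at adjusted p below 0.01 and without replicate 3. The share of H3.3 in H3 was 53.8% without HS and 84.2% at 4 h per kb of exon, an alternative chosen after seeing the data. Without members that overlap another gene or have a near-identical copy, H2A.Z made up 22.1% of H2A without HS and 26.8% at 4 h, and the summed S-phase level was 1124.8 and 714.5 CPM. With CPM of the raw library total, the sum over all 26 S-phase members was 790.9 CPM at 4 h. Without a replicate number, the share of H3.3 ranged from 65.2% to 65.5% without HS and from 87.9% to 88.7% at 4 h. AT5G02570 and AT3G27360 had levels below 5 CPM and overlap another annotated gene, so their values are less certain.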

Other observations

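The H2B gene AT3G53650 rose in Col at 4 h (log2 fold change 0.81, edgeR adjusted p = 0.00262). Averaged over the 4 genotypes it lay below its no-HS level at 28 h (log2 fold change -0.54, SE 0.119, edgeR adjusted p = 0.000241; -0.49 without the Col library numbered 1 at 28 h) and at 52 h (-0.37, SE 0.119, edgeR adjusted p = 0.0102). The H2A.W gene HTA12 was lower at 28 h (-0.45, SE 0.0808, edgeR adjusted p = 1.37e-05; -0.44 without that library) and at 52 h (-0.20, SE 0.0803, edgeR adjusted p = 0.037). HTA12 shares 34.7% of its exon bases with another annotated gene, and the part of that overlap in its values was not tested.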
